A study of Mus musculus with 9 samples.

Results

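The set described here holds 10 genes of midbrain patterning: the homeobox genes Otx1, Otx2, Irx1, Irx2, Irx3, Irx5, Nkx2-2, Nkx6-1 and Gbx2, and the non-coding gene Otx2os1, which is transcribed next to Otx2. They were chosen by symbol from a named list, in a rule that uses no measured value but was written with earlier results of these data known, and all 10 were found among the 32695 entries of the count table that are not ERCC spike-ins. Of 3455 wells, 2035 were read, each with 2000 or more genes found, no more than 50000 counts and a mitochondrial share under 15%. They held single ventral midbrain cells of VGAT:Ai14:PITX3-GFP mice, in which Cre from the VGAT locus turns on tdTomato (Ai14) and GFP is made where Pitx3 is expressed. Cells sorted for tdTomato filled 4 plates at E16 (1026 cells kept) and 3 plates at P0 (434 cells kept), which are called VGAT plates. Cells with tdTomato and GFP filled 1 plate at E16 (304 cells) and 1 at P0 (271 cells), the VGAT+Pitx3 plates. All groups share the same 3 alleles, and the Cre marks each cell that has ever expressed VGAT (Slc32a1, the vesicular GABA transporter), so a cell with tdTomato need not transcribe Slc32a1 when sorted. The brains of several litters were used at each stage, and the labels do not say which animals went onto which plate.

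Otx2 and Gbx2 face each other across the midbrain-hindbrain boundary in the early embryo, where Otx2 is required for the forebrain and midbrain and Gbx2 for the anterior hindbrain. Nkx2-2 and Nkx6-1 are ventral genes that respond to Sonic hedgehog, and the Iroquois genes (Irx) divide the neural tube along both axes and lie in gene clusters. Otx2 is kept in a part of the dopamine neurons of the ventral tegmental area, and Nkx2-2, with Gata and Tal factors, is known in GABAergic progenitors of the midbrain.

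The positions of the genes in GRCm38 bear on what their counts can separate. Otx2 (ENSMUSG00000021848) lies on the minus strand at chr14:48657677-48673819, and Otx2os1 (ENSMUSG00000098682), a long non-coding RNA gene, on the plus strand at chr14:48668708-48870683. The annotations of this pair overlap over 5112 bases, and since it is not stated whether counting used the strand, reads from that stretch cannot be told apart. The counts of the pair came from different parts of the genes: on the VGAT plates 2.42% of the Otx2 counts and 98.4% of the Otx2os1 counts (3930 of them, against 63 exonic) were intronic, compared with 26.2% over all genes. Irx1 (chr13:71957921-71963723, minus strand) and Irx2 (chr13:72628820-72634198, plus strand) are neighbours with 665096 bases between them, and Irx3 (chr8:91798525-91802067, minus strand) and Irx5 (chr8:92357625-92376286, plus strand) with 555557 bases. Otx1 lies at chr11:21994764-22002897, Nkx2-2 at chr2:147177546-147194243, Nkx6-1 at chr5:101658139-101664996 and Gbx2 at chr1:89927956-89931179, all on the minus strand. Antisense genes overlap Nkx2-2 (Nkx2-2os, over 10161 bases, with 72 counts on the VGAT plates) and Irx3 (Irx3os, over 1653 bases, with 25 counts).

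RefSeq promoters (GRCm38.p6, 250 bases before to 50 bases after the start site) were given for 6 of the 10 genes, 9 promoters in all. Of these, 4 are shown: the Otx2 start nearest to Otx2os1 and the Otx2 start that holds an Otx-class motif, since Otx2 and Otx2os1 were found in the same cells, and the promoters of Nkx2-2 and Irx2, which were found apart from and together with other members in the comparisons below. Capitals mark the motif letters that were found. The first Otx2 promoter lies at chr14:48667595-48667894, and its start site is 1064 bases from the annotated start of Otx2os1, which runs the other way. The second lies at chr14:48665060-48665359 (3599 bases from that start), the Nkx2-2 promoter at chr2:147186353-147186652 and the Irx2 promoter at chr13:72628570-72628869. The first 3 are written from the minus strand and Irx2 from the plus strand.
Otx2, start nearest to Otx2os1: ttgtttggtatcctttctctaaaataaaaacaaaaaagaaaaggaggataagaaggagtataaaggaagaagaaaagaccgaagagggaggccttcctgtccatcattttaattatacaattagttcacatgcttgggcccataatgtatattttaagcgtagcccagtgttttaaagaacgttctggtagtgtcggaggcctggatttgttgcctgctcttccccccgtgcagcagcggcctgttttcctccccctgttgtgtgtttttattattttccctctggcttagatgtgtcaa
Otx2, start with the Otx-class motif: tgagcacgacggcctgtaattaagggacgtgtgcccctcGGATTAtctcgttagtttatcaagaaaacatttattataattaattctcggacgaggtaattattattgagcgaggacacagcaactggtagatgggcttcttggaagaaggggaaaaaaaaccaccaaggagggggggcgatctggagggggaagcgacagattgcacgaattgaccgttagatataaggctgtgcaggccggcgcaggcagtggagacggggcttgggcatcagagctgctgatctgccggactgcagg
Nkx2-2: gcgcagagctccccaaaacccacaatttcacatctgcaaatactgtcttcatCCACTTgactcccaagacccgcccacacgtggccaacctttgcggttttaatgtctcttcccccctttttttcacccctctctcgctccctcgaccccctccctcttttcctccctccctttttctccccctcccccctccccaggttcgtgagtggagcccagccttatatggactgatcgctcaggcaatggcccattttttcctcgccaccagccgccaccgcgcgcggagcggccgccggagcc
Irx2: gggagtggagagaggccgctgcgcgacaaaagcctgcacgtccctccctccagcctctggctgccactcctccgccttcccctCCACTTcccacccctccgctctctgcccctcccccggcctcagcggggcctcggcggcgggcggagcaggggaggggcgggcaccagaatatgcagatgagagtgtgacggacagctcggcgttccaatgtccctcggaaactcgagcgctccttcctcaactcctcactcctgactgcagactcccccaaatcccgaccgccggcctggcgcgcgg
The letters TAATCC (Otx class, here as its reverse complement), AAGTGG (Nkx2 class, likewise), ACANNTGT (Iroquois) and TGTTTAC (Foxa class) were searched on both strands. Over all 32851 RefSeq promoters of the same length, 7.06%, 16.9%, 7.38% and 3.65% held them. The second Otx2 promoter held 1 Otx-class match, the Nkx2-2 and Irx2 promoters 1 Nkx2-class match each, and the first Otx2 promoter none of the 4. These matches describe the letters of the windows and are not evidence of binding.

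The plates differed in depth and in 1 of their labels. The cells kept per plate gave between 1435919 and 5408710 counts, so that 3 counts on a plate correspond to between 0.555 and 2.09 CPM, the counts of a gene scaled to a common library total. The median count per cell was 15608 to 22588 on the VGAT E16 plates, and 7043 (replicate 2) to 33272 (replicate 1, with 44 cells) on the VGAT P0 plates. It was 13866 on the E16 and 7466 on the P0 VGAT+Pitx3 plate. Cell names carry a further plate label that disagrees with the sample labels on 6 of the 9 plates. The sample labels were used, under which Pitx3 was found in 38.5% and 25.7% of the cells of the VGAT+Pitx3 plates and in at most 0.592% of those of any VGAT plate. The summed level of GABAergic markers (Slc32a1, Gad1 and Gad2) was 1573 to 2040 CPM on VGAT plates and 1176 to 1340 CPM on VGAT+Pitx3 plates, and that of 8 dopaminergic markers 61.9 to 148 CPM and 3023 to 3967 CPM. The VGAT P0 replicate 2 plate stood apart in Fabp7, a radial glia gene, with 246 CPM against 2.71 to 7.40 CPM on the other VGAT plates. Its summed radial glia markers were at 407 CPM, against 82.6 to 124 CPM on the other VGAT plates. Its oligodendrocyte lineage markers were at 47.2 CPM, against 0 to 10.5 CPM. Because the levels below are sums over a plate, fewer cells with a gene and less RNA of it per cell cannot be told apart in them.

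Otx2 was found at a similar level on all VGAT plates. Its level was 107, 96.0, 103 and 116 CPM at E16 and 102, 64.4 and 90.8 CPM at P0 (96.9 ± 16.3 CPM, SD, n = 7). On the VGAT+Pitx3 plates it was 28.5 CPM at E16 and 18.4 CPM at P0, below the lowest VGAT plate. Otx1, its relative, which acts later in the cortex and midbrain, was at 59.4, 62.3, 60.5 and 104 CPM at E16 and at 54.5, 52.8 and 48.8 CPM at P0. It was at 18.5 and 11.7 CPM on the VGAT+Pitx3 plates. The VGAT E16 replicate 4 plate was the only VGAT plate with Otx1 above 62.3 CPM. Otx2os1 was at 167, 123, 152 and 247 CPM at E16 and at 104, 70.5 and 97.5 CPM at P0, against 22.4 and 25.1 CPM on the VGAT+Pitx3 plates.

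The 4 Iroquois genes were present on each VGAT plate and close to absent from the VGAT+Pitx3 plates. Irx2 was the steadiest, at 43.6, 54.1, 58.8 and 52.5 CPM at E16 and 47.1, 45.0 and 38.8 CPM at P0, with 1.36 and 0.449 CPM (6 counts and 1 count) on the VGAT+Pitx3 plates. Irx1 was at 37.0, 42.8, 35.2 and 28.6 CPM at E16 and at 32.3, 71.7 and 30.1 CPM at P0, and had 9 counts and 1 count on the VGAT+Pitx3 plates (2.04 and 0.449 CPM). Replicate 2 at P0 was thus high in Irx1, and the other 6 VGAT plates lay between 28.6 and 42.8 CPM. Irx5 was at 31.5, 35.7, 25.3 and 23.8 CPM at E16 and at 26.2, 24.4 and 38.0 CPM at P0, and at 0.678 and 2.24 CPM on the VGAT+Pitx3 plates. Irx3 was at 6.90, 11.2, 6.47 and 4.56 CPM at E16 and at 8.07, 15.6 and 12.3 CPM at P0, and had 3 counts on the VGAT+Pitx3 plates together. For both genes the VGAT+Pitx3 plates lay below all 7 VGAT plates.

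Nkx2-2 was at 115, 95.0, 92.8 and 163 CPM at E16 and at 124, 75.5 and 54.9 CPM at P0 on the VGAT plates, and at 3.39 and 2.69 CPM on the VGAT+Pitx3 plates. The VGAT+Pitx3 plates lay below the lowest of the VGAT plates, P0 replicate 3. Nkx6-1, a progenitor gene, had 10 counts in all on the 7 VGAT plates (0 to 4 a plate) and 10 and 7 counts on the VGAT+Pitx3 plates. In CPM of the summed counts this was 0.379 against 2.45, a ratio of 0.155 with an exact 95% counting interval of 0.0633 to 0.358. Such intervals cover counting error only, and the 17 counts on the VGAT+Pitx3 plates came from 7 cells. Gbx2 had 33 counts on the VGAT plates, of which 23 were on P0 replicate 1 and 20 of these in a single cell, and 1 count on the VGAT+Pitx3 plates. Neither gene had enough counts to enter the fits of sort and stage.

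**Figure D1:**
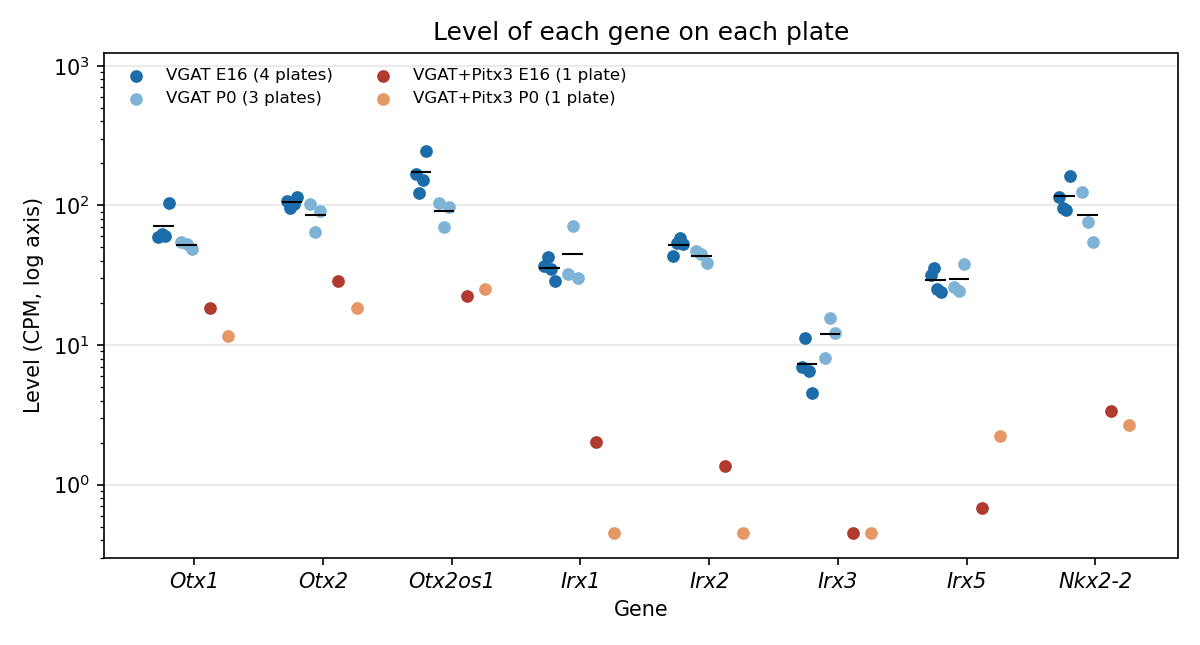
Level of 8 genes on each plate (CPM, log axis), with 1 point per plate and a bar at the mean of the VGAT E16 (4 plates) and VGAT P0 (3 plates) groups. For all 8 genes the VGAT+Pitx3 plates lay below each VGAT plate, at 11.7 to 28.5 CPM for the Otx genes and Otx2os1 and at 3.39 CPM or less for the Iroquois genes and Nkx2-2.

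The comparison of VGAT+Pitx3 with VGAT cells asked whether GABAergic cells that also express the dopaminergic reporter carry the same patterning genes as the rest. All members that could be tested were lower in the VGAT+Pitx3 cells, with log2 differences of -2.47 to -2.01 for the Otx genes and Otx2os1 and of -5.52 to -4.21 for the Iroquois genes and Nkx2-2. With the counts of the 9 plates in 1 edgeR quasi-likelihood model with stage as covariate, and Benjamini-Hochberg adjustment, 1306 of 14624 genes passed an adjusted p of 0.05 (8.93%), with 4.73% of all genes higher and 4.20% lower on the VGAT+Pitx3 plates. All 8 members tested were lower. On the log2 scale, Irx2 fell by 5.52 (SE 0.31, adjusted p = 1.62e-08), Nkx2-2 by 5.04 (SE 0.44, adjusted p = 1.94e-06), Irx1 by 4.67 (SE 0.51, adjusted p = 1.67e-05), Irx5 by 4.56 (SE 0.40, adjusted p = 2.41e-06) and Irx3 by 4.21 (SE 0.62, adjusted p = 0.000296). Otx2os1 fell by 2.47 (SE 0.32, adjusted p = 8.47e-05), Otx1, by 2.02 (SE 0.25, adjusted p = 5.97e-05), and Otx2, by 2.01 (SE 0.19, adjusted p = 4.13e-06). The median over the 8 members was -4.38 and that over all genes tested was -0.000681. Since Irx3 rests on 3 counts on the VGAT+Pitx3 plates, its summed counts are also given as a ratio, 19.9 with an exact counting interval of 6.73 to 97.3. The corresponding ratios were 49.8 (24.1 to 124) for Irx2, 26.0 (14.1 to 54.4) for Irx1 and 4.17 (3.57 to 4.91) for Otx2.

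These calls held in each of the 18 alternatives that kept the sample labels, with each plate left out in turn and within E16 and P0 alone among them, except that of Otx2os1 in exonic counts (adjusted p = 0.336, with 63 exonic counts on the VGAT plates). Within a stage, or with a VGAT+Pitx3 plate left out, the VGAT+Pitx3 group is 1 plate, which is then assumed to vary like the VGAT plates. The p-values measure the spread between plates, which may be technical, and each stage has 1 VGAT+Pitx3 plate. The dopaminergic and GABAergic marker levels given above differ between the same plates. So do the summed levels of glutamatergic markers (108 to 210 CPM on VGAT+Pitx3 and 1.90 to 23.9 CPM on VGAT plates), hindbrain markers (2.71 to 4.04 and 18.6 to 121 CPM) and forebrain GABAergic markers (0 to 0.678 and 7.30 to 282 CPM). Radial glia markers summed to 183 to 228 CPM on VGAT+Pitx3 and 82.6 to 407 CPM on VGAT plates. For oligodendrocyte lineage markers the sums were 23.7 to 32.7 CPM and 0 to 47.2 CPM. Both were higher on the VGAT+Pitx3 plates than on each VGAT plate but P0 replicate 2. The part of these markers in the result was not tested.

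Other genes of the patterning network differed in both directions. Of 56 listed genes, 39 could be tested, 9 were higher, 19 were lower and 11 did not pass. Lmx1a and Lmx1b, which specify the midbrain floor plate and dopamine neurons, were higher by 7.75 (adjusted p = 1.82e-09) and 7.71 (adjusted p = 6.54e-09). Foxa1 (5.60), Foxa2 (1.84), the engrailed genes En1 (3.35) and En2 (3.37) and the floor plate signal Shh (2.95) were higher too. Gata3, a transcription factor gene of midbrain GABAergic neurons, fell by 9.08 (adjusted p = 2.83e-09) and Meis2 by 7.67 (adjusted p = 4.98e-08). Sox14, Dlx1, Dlx2 and Otp had no count on either VGAT+Pitx3 plate. Against a floor of 3 counts over these plates together (0.432 CPM), Sox14 was at least 174-fold, Dlx1 at least 106-fold, Dlx2 at least 34.8-fold and Otp at least 34.7-fold lower. The calls of Dlx1, Dlx2 and Otp were lost without the VGAT+Pitx3 E16 plate, and those of Dlx2 and Otp also without the P0 one (adjusted p up to 0.478).

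Shares of cells with a count were compared at equal depth, after each cell was thinned to 4000 counts, which left out 79 shallower cells. On the VGAT plates, Nkx2-2 was found in 20.7 ± 6.90% (SD, n = 7) of the cells, Otx2 in 18.7 ± 3.97%, Otx2os1 in 16.7 ± 4.19% and Otx1 in 15.5 ± 4.04%. Irx2 was found in 13.8 ± 2.19%, Irx1 in 12.2 ± 5.41%, Irx5 in 9.73 ± 3.69% and Irx3 in 2.96 ± 1.63%. Neighbours in this order lay within each other's spread, apart from Irx5 and Irx3. Per plate, Otx2 ranged from 14.4% to 23.3%, Otx1 from 10.7% to 23.2%, Nkx2-2 from 12.4% to 30.7% and Irx1 from 5.80% to 23.2%. The high ends of the Otx1 and Nkx2-2 ranges were again the VGAT E16 replicate 4 plate, and the high end of Irx1 the VGAT P0 replicate 2 plate.

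On the VGAT+Pitx3 plates the Otx genes were found in more cells than the other members were. Otx2 was found in 7.69% and 8.03% of the cells at E16 and P0, Otx2os1 in 8.03% and 8.43% and Otx1 in 5.02% and 3.21%. For scale, Gata3 and Six3, genes of the VGAT cells that are low on these plates in the same data, are given. Gata3 was found in 0.334% and 0%, and Six3 in 0.669% and 0.402%. Irx1 was at 1.00% and 0% (0 of 249 cells, which by the limit of 3 counts allows a share of cells with a count of up to 1.20%, and an exact 95% upper bound of 1.47%), Irx2 at 0.669% and 0%, Irx3 at 0.334% and 0%, Irx5 at 0.334% and 0.402% and Nkx2-2 at 0.669% and 1.20%. Irx2, Irx3 and Irx5 did not exceed the highest share of Gata3 and Six3 there, while Irx1 at E16 and Nkx2-2 at both stages were at or above it. Gata3 is also the more abundant gene on the VGAT plates, with a mean of 562 CPM there and 0.791 CPM on the VGAT+Pitx3 plates, against 103 and 3.04 CPM for Nkx2-2 and 48.6 and 0.903 CPM for Irx2. Whether these low shares come from free RNA was not tested. Without thinning, Otx2 had a median of 4 counts in the 398 VGAT cells with it (highest 44) and of 1 count in the 70 VGAT+Pitx3 cells with it (highest 13), whereas Otx1 had a median of 2 counts in the cells with it on both kinds of plate (456 and 43 cells). These counts are not matched for depth, and the median total per cell was 13866 and 7466 on the VGAT+Pitx3 plates. Nkx2-2 had a median of 2 counts in the 9 VGAT+Pitx3 cells with it (21 counts in all, highest 7). On the VGAT plates its median was 3 counts in 532 cells, that of Otx2os1 2 counts in 482 cells with a highest value of 142, and that of the Iroquois genes 1 or 2 counts.

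**Figure D2:**
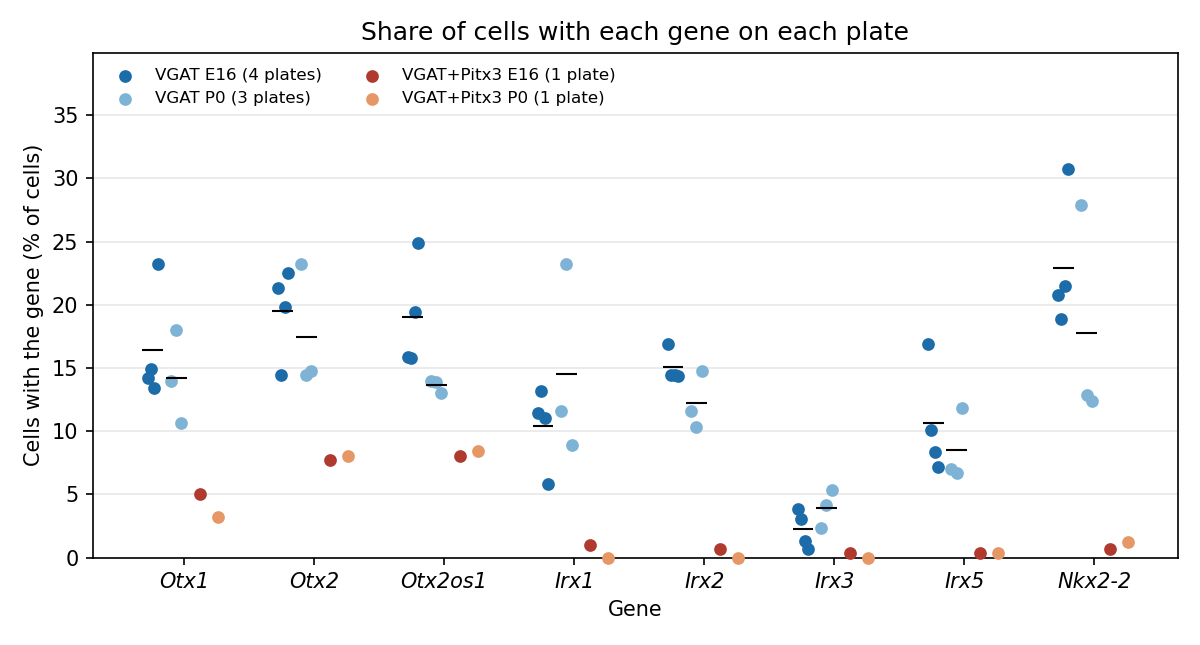
Share of cells with at least 1 count of each gene (percent of cells, each thinned to 4000 counts), with 1 point per plate and bars at the means of the VGAT E16 and VGAT P0 plates. Otx1, Otx2 and Otx2os1 were found in 3.21% to 8.43% of the VGAT+Pitx3 cells, while the Iroquois genes and Nkx2-2 were at or below 1.20% there.

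The comparison of P0 with E16 on the 7 VGAT plates asked whether the patterning genes change around birth. The further plate label names the other stage for 4 of these plates (E16 replicates 3 and 4, P0 replicates 1 and 3), so the stage results depend on the sample labels being right: with that label, 1 gene passed on the same 7 plates (Arpc3), and no member. In the edgeR test 624 of 13639 genes passed (4.58%), with 2.84% of all genes higher and 1.74% lower at P0. Of the 8 members tested, 1 passed: Otx2os1 fell by 0.91 on the log2 scale (SE 0.22, adjusted p = 0.0367), from 172 ± 53.1 CPM (SD, n = 4) to 90.8 ± 17.8 CPM (SD, n = 3), and the plates of the stages did not overlap. This call was kept in 8 of 16 alternatives. It was lost without E16 replicate 1, 3 or 4, without P0 replicate 2 or 3 and in exonic counts (adjusted p up to 0.115 among those with the sample labels). Otx2 was lower by 0.29 (adjusted p = 0.249), Otx1 by 0.46 (adjusted p = 0.183) and Nkx2-2 by 0.48 (adjusted p = 0.267) at P0, with overlapping plates for Otx2 and Nkx2-2. Otx1 did not overlap, with 59.4 to 104 CPM at E16 and 48.8 to 54.5 CPM at P0. Without a filter on low counts Otx1 and Nkx2-2 passed (adjusted p = 0.0166 and 0.00496).

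The Iroquois genes gave small and unlike differences between the stages. Irx3 was higher by 0.74 at P0 (adjusted p = 0.196), Irx1 by 0.30 (adjusted p = 0.512) and Irx5 by 0.07 (adjusted p = 0.86), and Irx2 was lower by 0.27 (adjusted p = 0.278). The sign of Irx1 rested on P0 replicate 2, without which it was -0.21. Among 34 network genes tested, Tcf7l2, a diencephalic and Wnt pathway gene, fell by 1.16 (adjusted p = 0.0178), a call that was lost without E16 replicate 3, E16 replicate 4 or P0 replicate 2, and without the cells above 2 times the median total of their plate (adjusted p up to 0.0532). Whether the effect of stage differed between the sorts was tested by their interaction. None of 15724 genes passed in edgeR (0% of all genes), with 998 at an unadjusted p under 0.05, and DESeq2 called 3 (Nrp1, Pcdh9 and Ptprk). None of the 10 members passed, and for Otx2os1 the interaction was 1.08 (SE 0.53, adjusted p = 0.778).

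Which members shared cells was read on the VGAT plates, in cells thinned to 4000 counts. Of these cells, 37.8 ± 4.67% (SD, n = 7) had no count of Otx1, Otx2, any Iroquois gene or Nkx2-2. Only Iroquois genes were found in 18.5 ± 3.99%, only Otx genes in 17.6 ± 2.78% and only Nkx2-2 in 9.13 ± 1.90%. Otx genes and Nkx2-2 met in 7.08 ± 4.06% and all 3 groups in 1.97 ± 0.620%. On the VGAT+Pitx3 plates 87.0% and 87.6% of the cells had none, and 10.4% and 10.8% had Otx genes only. A cell without a count at this depth may still express the gene.

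Within the Iroquois family, the neighbours in the genome were found together. Irx2 was found in 42.4 ± 17.3% of the cells with Irx1 and in 10.3 ± 1.62% of those without it (higher on 7 of 7 plates). Irx5 was found in 41.9 ± 23.5% of the cells with Irx3 and in 10.0 ± 3.84% of those without (4 of 4 plates with at least 5 cells with Irx3, 31 cells). The pairs from different clusters shared cells as well: Irx1 was in 35.9 ± 12.8% of Irx3 cells against 13.3 ± 6.07%, and Irx5 in 20.5 ± 9.67% of Irx1 cells against 8.42 ± 3.08%, both higher on all plates used (4 and 7). Irx2 was in 28.8 ± 15.3% of Irx3 cells against 13.5 ± 3.40% (higher on 3 of 4 plates), and Irx5 in 18.3 ± 9.78% of Irx2 cells against 8.29 ± 2.79% (6 of 7 plates).

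Nkx2-2 and Irx5 were found apart. Of 293 cells with Nkx2-2, 4 had Irx5, or 1.13 ± 1.93% against 11.9 ± 4.04% of the cells without Nkx2-2 (lower on 7 of 7 plates). Irx3 was in 0.947 ± 1.67% of the Nkx2-2 cells and in 3.44 ± 1.69% of the others, lower on 7 plates too. Irx1 and Irx2 did not follow: Irx1 was in 13.4 ± 9.08% of Nkx2-2 cells against 11.9 ± 5.14%, and Irx2 in 13.5 ± 3.88% against 13.9 ± 2.43%. Otx2 and Irx5 were found apart as well, with Irx5 in 2.93 ± 2.72% of Otx2 cells and 11.3 ± 4.23% of the others (lower on 7 of 7 plates). Otx1 and Otx2 shared 29 cells of 227 and 260. Otx2 was in 13.7 ± 5.88% of Otx1 cells and 19.7 ± 4.26% of the others, lower on 5 of 7 plates.

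**Figure D3:**
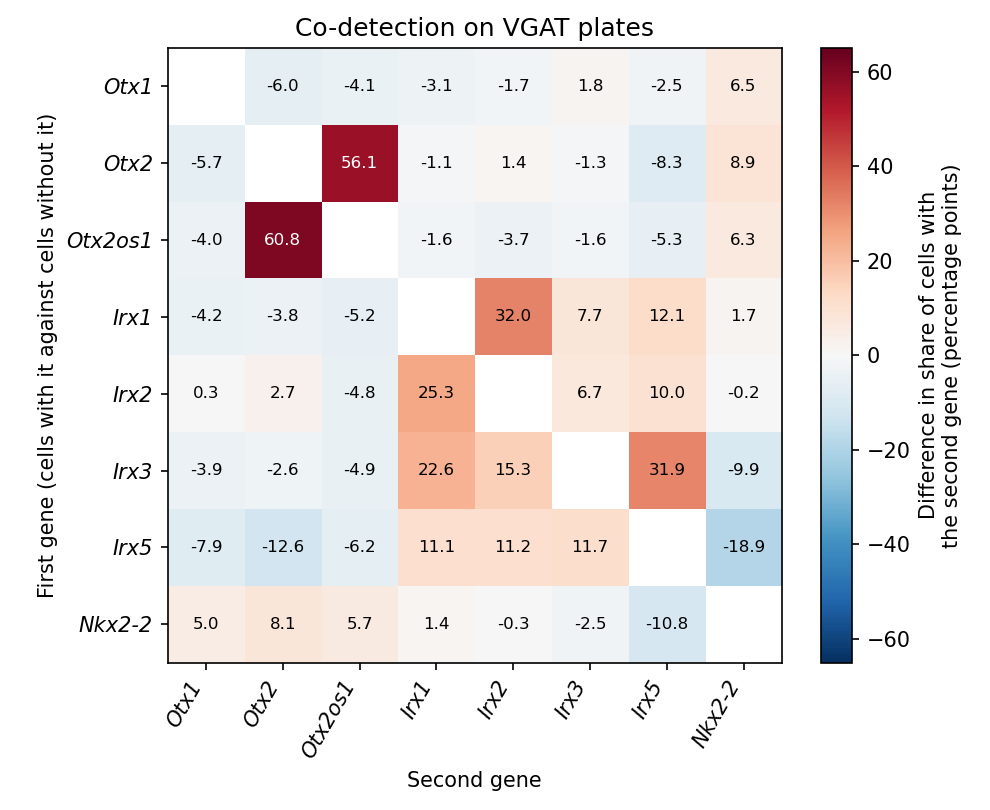
Difference in the share of VGAT cells with a second gene between cells with and cells without a first gene (percentage points, mean over the plates used: 7, but 6 for Irx5 and 4 for Irx3 as first gene). Otx2 with Otx2os1 and Irx1 with Irx2 were raised, and Irx5 was lowered by 10.8 points in Nkx2-2 cells and by 8.34 points in Otx2 cells.

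To test what else went with a member, the counts of cells with and without it were summed per plate and compared over all genes, with the plate as a block. The comparisons of Otx2, Otx1, Nkx2-2, Irx2 and Irx3 use the same cells, so their results are given side by side. In the Otx2 comparison (260 cells with Otx2 on 7 plates), 366 of 7432 genes passed, 4.92% of all genes (2.73% higher and 2.19% lower). Of 6 other members tested, 1 was higher and 2 were lower. Otx2os1 was at 804, 912, 700 and 970 CPM in the Otx2 cells of the 4 E16 plates and at 429, 325 and 755 CPM in those of the 3 P0 plates. In the other cells it was at 9.22 to 69.6 CPM. The ranges were far apart, and Otx2os1 was higher by 4.34 on the log2 scale (SE 0.19, adjusted p = 1.44e-17), a call kept in 13 of 13 alternatives. The overlap of the annotations named above applies to this pair. By cells, 62.4 ± 14.9% of the Otx2 cells and 6.33 ± 3.12% of the others had Otx2os1.

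Irx5 was lower in Otx2 cells, at 8.04 ± 7.43 CPM against 41.9 ± 17.2 CPM (SD, n = 7), a difference of -2.14 (SE 0.42, adjusted p = 0.000764) that was lower on all 7 plates. The call was lost with cells thinned to 8000 counts (adjusted p = 0.308). Otx1 was lower by 0.93 (SE 0.26, adjusted p = 0.0303), but was higher on E16 replicate 1 and passed in 5 of 13 alternatives, and not without E16 replicate 2, 3 or 4 or P0 replicate 2 (adjusted p up to 0.340). Nkx2-2 (0.26, adjusted p = 0.581), Irx1 (-0.29) and Irx2 (-0.02) did not pass, although the share of cells with Nkx2-2 was higher in Otx2 cells on 7 of 7 plates (28.0 ± 9.47% against 19.1 ± 6.49%).

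Foxa1 and Foxa2 were higher in the Otx2 cells. Of 22 network genes tested, 6 were higher and 5 lower. Foxa2, a floor plate and dopamine progenitor factor, was at 150 ± 81.3 CPM in Otx2 cells and at 14.1 ± 13.8 CPM in the others (3.43, SE 0.26, adjusted p = 1.56e-11), and Foxa1 was higher by 3.65 (adjusted p = 4.02e-05, higher on 6 of 7 plates). Foxa2 was found in 31.9 ± 12.9% of Otx2 cells and 3.65 ± 3.07% of the others. Six3, a factor of nigral GABAergic neurons, was higher by 0.81 (adjusted p = 7.05e-06), and Tal1 by 0.55 (adjusted p = 0.0100). Dlx1, a forebrain gene, was lower by 3.08 (adjusted p = 9.16e-06), and Pax5, a midbrain-hindbrain boundary gene, by 1.74 (adjusted p = 4.76e-05). Meis2 and Gata3 were lower by 1.21 and 0.78. The call of Dlx1 was lost in DESeq2 (adjusted p = 0.0653) and that of Pax5 in DESeq2 and without the plate block (adjusted p up to 0.336).

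Among all genes with the same sign on 7 plates, the largest increases besides Otx2os1 and Foxa2 were 4933429O19Rik (4.85, 29 counts against 3), 9030622O22Rik (3.86) and Neurod6 (3.61), a gene of neuronal differentiation. Of these, 4933429O19Rik lies 7902 bases beyond Otx2os1 and 9030622O22Rik 2673 bases from Foxa2, by the annotation. The largest decreases besides Dlx1 were Ebf2 (-2.81), 2700069I18Rik (-2.66), Cdh23 (-2.33) and Gfra1 (-2.18), a GDNF co-receptor. The call of Ebf2 was lost at 8000 counts a cell (adjusted p = 0.576). Gad1, the GABA-synthesizing enzyme, was higher by 0.38 in Otx2 cells (adjusted p = 0.00138) on 7 of 7 plates. The other GABAergic markers did not pass: Slc32a1 was at 208 CPM against 259 CPM (-0.26, adjusted p = 0.367), lower on 7 of 7 plates, and the difference for Gad2 was 0.04 (adjusted p = 0.971). Fabp7 was higher too, but on P0 replicate 2 it was at 1025 CPM against 186 CPM and elsewhere at 12.5 CPM or less in Otx2 cells, so its call rests on that plate. Vim, an intermediate filament gene of progenitors and glia, was higher by 1.19 (adjusted p = 0.00129) on 7 of 7 plates, and without P0 replicate 2 by 1.22 (adjusted p = 0.00174). The other radial glia markers tested did not pass. Slc1a3 was higher by 1.49 (adjusted p = 0.272) on 4 of 7 plates, and Sox2 was lower by 0.11 (adjusted p = 0.922) on 5 of 7. Of the dopaminergic markers, the aromatic amino acid decarboxylase gene Ddc was higher by 2.37 (adjusted p = 3.49e-07) on 7 of 7 plates and Nr4a2 was lower by 1.94 (adjusted p = 0.00149) on 6 of 7. The part of these other cell types' markers in the Otx2 comparison was not tested.

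In the Otx1 comparison (227 cells), 183 of 6727 genes passed, 2.72% of all genes (1.07% higher and 1.65% lower). Of the 6 members tested, Otx2os1 and Otx2 were lower. Otx2os1 was at 63.4 ± 38.2 CPM in Otx1 cells against 182 ± 79.4 CPM in the others (-1.72, SE 0.21, adjusted p = 1.74e-07), lower on 7 of 7 plates, and passed in 13 of 13 alternatives. Otx2 was at 75.5 ± 35.6 CPM against 136 ± 33.4 CPM (-1.04, SE 0.22, adjusted p = 0.00137), and this call was lost without E16 replicate 4, without the plate block, with full counts and in DESeq2 (adjusted p up to 0.100). Nkx2-2 (0.41, adjusted p = 0.435), Irx5 (-1.14, adjusted p = 0.154), Irx1 (-0.70) and Irx2 (-0.50) did not pass.

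Gata3 and Sox14, genes of midbrain GABAergic neurons, were higher in the Otx1 cells. Of 21 network genes, 4 were higher: Gli3, an effector of hedgehog signalling (2.48, adjusted p = 0.000313), Sox14 (0.94, adjusted p = 0.00352), Gata3 (0.89, adjusted p = 5.15e-09) and Meis2 (0.64, adjusted p = 0.000489). Gata3 was found in 81.3 ± 4.85% of Otx1 cells and 61.9 ± 9.87% of the others, and Sox14 in 30.7 ± 12.4% against 14.0 ± 2.36%, each on 7 of 7 plates. The Sox14 call was lost without E16 replicate 4, without the plate block and in DESeq2 (adjusted p up to 0.237). Lower were 7, among them Dlx1 (-2.32), Foxa2 (-2.12), Meis1 (-1.81) and En1 (-1.39). Of these, the call of Meis1 was lost without E16 replicate 2 and that of En1 without E16 replicate 3 or 4 or P0 replicate 2. In DESeq2 the calls of Dlx1 (adjusted p = 0.104), Foxa2 (adjusted p = 0.463), Meis1 and En1 were lost. Among genes with 1 sign on all 7 plates, others with the largest increases were Gm42303 (1.85), 2700069I18Rik (1.78), Wdpcp (1.75), which lies 95774 bases from Otx1, the prolactin receptor Prlr (1.56) and Zfp503 (1.55). Those with the largest decreases were Nr4a2 (-3.43), Calb1 (-2.84), a calcium-binding protein, Sp9 (-2.57), AC162302.2 (8 counts against 167) and Sox2 (-1.98). The call of Zfp503 was lost without E16 replicate 4 (1.44 against 1.55 with all plates, adjusted p = 0.0523) and that of AC162302.2 without E16 replicate 3 (-1.70, adjusted p = 0.0886). Those of AC162302.2 in DESeq2, of Sox2 at 8000 counts a cell and of Calb1 with at least 2 counts of Otx1 were lost too. Of the markers of other cell types, Vim was lower by 1.86 (adjusted p = 0.00136) on 7 of 7 plates and Ddc by 1.45 (adjusted p = 0.0184) on 5 of 7, and their part in the Otx1 comparison was not tested. Thus 2700069I18Rik was lower in Otx2 cells and higher in Otx1 cells, and Foxa2 the reverse.

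In the Nkx2-2 comparison (293 cells), 209 of 8261 genes passed, 2.53% of all genes (0.823% higher and 1.71% lower), and 1 of the 6 members tested. Irx5 had 4 counts in Nkx2-2 cells and 181 counts in the others. It was at 13.8, 0, 4.24 and 2.99 CPM in the Nkx2-2 cells of the 4 E16 plates and at 0 CPM in those of the 3 P0 plates, against 22.4 to 72.1 CPM in the other cells. The ranges did not overlap, the difference was -3.48 (SE 0.47, adjusted p = 1.56e-06), and it was kept in 11 of 11 alternatives. Otx1 was higher by 0.64 (adjusted p = 0.0572) and passed without E16 replicate 1 or 2 (adjusted p down to 0.032). Otx2 was higher by 0.50 (adjusted p = 0.140), and Otx2os1 (-0.39), Irx1 (0.13) and Irx2 (0.05) did not pass.

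En1, En2, Pax5 and Pax8, which act at the midbrain-hindbrain boundary, were lower in Nkx2-2 cells. Of 24 network genes, 6 were lower: En2 (-3.37, adjusted p = 8.93e-08), Pax5 (-3.30, adjusted p = 1.25e-10), Pax8 (-2.76, adjusted p = 0.00534), En1 (-2.49, adjusted p = 5.71e-07), Otp (-2.34, adjusted p = 0.0381) and Meis1 (-2.10, adjusted p = 0.000540). Pax5 was found in 2.35 ± 3.15% of Nkx2-2 cells and 17.9 ± 11.0% of the others, lower on 7 of 7 plates, and En1 was in 13 of the 293 Nkx2-2 cells. Higher were Tcf7l2 (1.10, adjusted p = 2.78e-06), Meis2 (0.97, adjusted p = 4.10e-05) and Gata3 (0.43, adjusted p = 0.00440). The call of Tcf7l2 was lost in DESeq2 and without the plate block (adjusted p up to 0.880), that of Meis2 without the plate block (adjusted p = 0.132), and those of Pax8, Meis1 and Otp in DESeq2. Among genes with 1 sign on all 7 plates, Nr4a2 (2.16), Ell2 (2.04), the substance P precursor Tac1 (1.99), Dpyd (1.66) and Prr16 (1.33) were the largest increases. Ebf2 had no count in Nkx2-2 cells and 120 in the others. The call of Otp was lost without E16 replicate 1, P0 replicate 2 or P0 replicate 3 (adjusted p up to 0.259), and that of Ell2 without E16 replicate 1. With at least 2 counts of Nkx2-2, the calls of Ell2, Tac1, Prr16 and Ebf2 were lost, that of Ebf2 also at 8000 counts a cell. Nr4a2 was thus higher in Nkx2-2 cells and lower in Otx1 cells.

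In the Irx2 comparison (199 cells), 60 of 5761 genes passed, 1.04% of all genes (0.555% higher and 0.486% lower), and 1 of the 6 members tested. Irx1 was at 222, 216, 130 and 90.6 CPM in the Irx2 cells of the E16 plates and at 146, 192 and 125 CPM in those of the P0 plates, against 12.8 to 85.3 CPM in the other cells. The ranges did not overlap, with P0 replicate 2 at the upper end of the other cells. The difference was 2.48 (SE 0.27, adjusted p = 3.26e-07) and was kept in 13 of 13 alternatives. Irx5 (0.97, adjusted p = 0.301) and Otx1 (-0.85, adjusted p = 0.393) did not pass. The paired-box genes Pax3 (3.37, adjusted p = 0.00423) and Pax5 (1.35, adjusted p = 9.89e-06), dorsal and boundary genes, were higher. Pax3 had no count in the Irx2 cells of 2 plates (E16 replicates 3 and 4) and was high on P0 replicate 3 (205 CPM against 21.7 CPM). Tcf7l2 (-1.02, adjusted p = 0.0135) was lower. The other leading genes with 1 sign on all 7 plates were Casz1 (1.69), Pdzrn4 (0.85), 1810041L15Rik (0.78) and Asic2 (0.71), and, lower, 9330158H04Rik (-2.42), Tac1 (-1.81), Maf (-1.59) and Onecut2 (-1.36). Leaving out 1 plate ended the calls of Tcf7l2 (E16 replicate 1, 3 or 4), Casz1 (P0 replicate 3), 1810041L15Rik (E16 replicate 2, 3 or 4), Onecut2 (E16 replicate 3 or 4) and Tac1 (E16 replicate 2 or 4, P0 replicate 2 or 3). In DESeq2 the calls of Tcf7l2, 1810041L15Rik, Maf, Onecut2 and Tac1 were lost, and with at least 2 counts of Irx2 those of 9330158H04Rik, Asic2, Pdzrn4, Onecut2 and Tac1. Fabp7 was higher by 1.89 (adjusted p = 0.000735), on 4 of 7 plates, with P0 replicate 2 at 1241 CPM against 224 CPM and 84 of its 92 counts, and was not called in DESeq2 (adjusted p = 0.606). The other radial glia markers tested did not pass, with Sox2 lower by 0.58 (adjusted p = 0.753) and Vim higher by 0.46 (adjusted p = 0.895). Lamp5 was lower by 1.67 (adjusted p = 0.0383) on 6 of 7 plates. The part of these markers in the Irx2 comparison was not tested. Without the plate block the count of genes that passed fell to 2, Irx1 and Kcnip4.

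The Irx3 comparison had 31 cells with Irx3 on 4 plates. Here 29 of 8789 genes passed, 0.330% of all genes (0.137% higher and 0.193% lower), and none of 7 members did, with 623 of all genes at an unadjusted p under 0.05. Irx5 was at 232 and 33.1 CPM in the Irx3 cells of E16 replicates 1 and 2 and at 91.4 and 166 CPM in those of P0 replicates 2 and 3, against 56.6, 32.0, 17.4 and 43.8 CPM in the other cells. It was higher on each of the 4 plates, by 1.78 (SE 0.55, adjusted p = 0.156), and passed with full counts (1.98, adjusted p = 0.0122) and with 8000 counts a cell (3.07, adjusted p = 1.05e-07). Irx1 was higher by 1.61 (adjusted p = 0.136) and Nkx2-2 was lower by 2.43 (adjusted p = 0.340). Otp, a homeobox gene of hypothalamic and interpeduncular neurons, was higher (2.13, adjusted p = 0.0412; kept in 2 of 9 alternatives), and Tcf7l2 was lower (-3.06, adjusted p = 1.55e-07). Among genes with 1 sign on all 4 plates, Pcsk5 (2.08) and Fstl4 (2.00) were the largest increases, and the muscarinic receptor gene Chrm2 (-4.22), AC124561.1 (-3.14), Cdh12 (-2.81) and Satb1 (-2.60), besides Tcf7l2, the largest decreases. The calls of Pcsk5 and Fstl4 were lost without P0 replicate 3, that of Otp without E16 replicate 2 or either P0 plate, and that of Satb1 without any of the 4 plates. The GABA-synthesizing enzyme Gad2 was lower by 1.24 (adjusted p = 0.0238), a call that was lost without P0 replicate 2 (adjusted p = 0.261) and in DESeq2 (adjusted p = 0.9999). Slc32a1 was at 288 CPM in Irx3 cells and 297 CPM in the others (-0.03, adjusted p = 0.994). Of the radial glia markers, Slc1a3 (0.96, adjusted p = 0.896), Vim (0.31, adjusted p = 0.974) and Sox2 (-0.27, adjusted p = 0.971) did not pass. Fabp7 was higher by 2.13 (adjusted p = 0.00410), on 2 of 4 plates. P0 replicate 2 held 44 of its 46 counts in Irx3 cells (1340 CPM against 271 CPM), and the part of this plate's Fabp7 in the Irx3 comparison was not tested. DESeq2 called 1 gene, Spry1, at this number of cells.

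**Figure D4:**
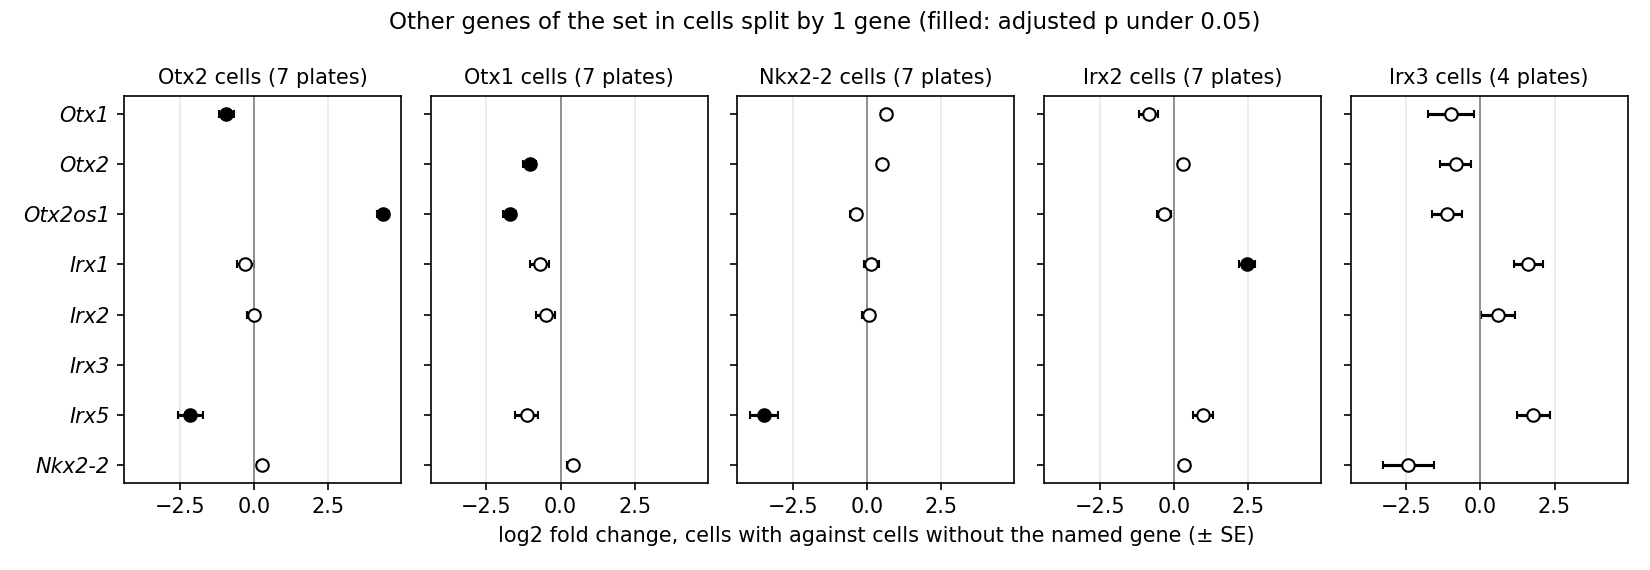
Log2 fold change (± SE) of the other members between cells with and cells without Otx2, Otx1, Nkx2-2, Irx2 or Irx3, over the plates given above each panel, where filled points passed an adjusted p of 0.05 over all genes. The largest values were Otx2os1 in Otx2 cells (4.34), Irx5 in Nkx2-2 cells (-3.48) and Irx1 in Irx2 cells (2.48).

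The genes most like each member were read from Pearson correlations of log2(count + 1) over 1408 thinned VGAT cells, computed within each plate, averaged over 7 plates and compared over 11581 genes found in at least 2% of the cells. The cells of a plate share its library, and in sparse counts weak correlations say little, so these values are a description. Otx2 was most like Otx2os1 (mean r = 0.658, plates 0.364 to 0.826), then Nfib (0.355) and Foxa2 (0.351). Otx2os1 was most like Otx2, Foxa2 (0.370) and Gm49152 (0.362), which lies within it. Otx1 was most like Zfhx3 (0.301), 2700069I18Rik (0.297) and Zfhx4 (0.269), and 2700069I18Rik overlaps Zfhx4 in the annotation. Irx1 and Irx2 were most like each other (0.360), with Casz1 (0.215) and Pax3 (0.210) next for Irx2. For Irx3 the leading genes were Otp (0.263), Dhx37 (0.229) and Irx5 (0.218), and for Irx5 Otp (0.234), Shisa6 (0.220) and Irx3 (0.218). The r of Irx3 with Dhx37 reached 1.00 on 1 plate with few cells. These values varied between plates. The r of Otp ran from -0.0433 to 0.842 with Irx3 and from 0 to 0.786 with Irx5, and that of Shisa6 with Irx5 from -0.0779 to 0.638. Nkx2-2 was most like Ptprm (0.228), C130073E24Rik (0.220) and Tenm3 (0.208). Nkx6-1 and Gbx2, each in 0.213% of these cells, were not compared.

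Otx2 cells were also present on the VGAT+Pitx3 plates. There were 23 of 299 at E16 and 20 of 249 at P0 after thinning. None of them had Gata3 or Six3 (0 of 23, with an exact 95% upper bound of 14.8%, and 0 of 20, with one of 16.8%). In the other cells Gata3 was in 0.362% at E16 and 0% at P0, and Six3 in 0.725% and 0.437%. At such shares this number of Otx2 cells cannot show a difference. Otx2os1 was found in 47.8% of the Otx2 cells at E16 (exact 95% interval 26.8% to 69.4%) against 4.71% of the other cells, and in 20.0% at P0 (5.73% to 43.7%) against 7.42%. En1 was found in 87.0% and 85.0% of the Otx2 cells and in 80.8% and 69.9% of the others, Foxa2 in 52.2% and 25.0% against 37.7% and 33.6%, and Aldh1a1 in 60.9% and 55.0% against 43.5% and 59.0%. The dopamine transporter gene Slc6a3 was in 34.8% and 40.0% against 48.2% and 43.2%, and the dopamine synthesis enzyme Th in 39.1% and 45.0% against 50.4% and 48.0%. For En1, Foxa2, Aldh1a1, Slc6a3 and Th the share in the other cells lay within the interval of the Otx2 cells on each plate.

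Cells with Otx1 on these plates numbered 15 at E16 and 8 at P0. Th was found in 13.3% of them at E16 (exact 95% interval 1.66% to 40.5%) against 51.4% of the others, and in 12.5% at P0 (0.316% to 52.7%) against 49.0%. The share of the other cells was outside the interval at E16 and inside it at P0. Slc6a3 was in 20.0% of the Otx1 cells at E16 (4.33% to 48.1%) against 48.6%, and in 37.5% at P0 (8.52% to 75.5%) against 43.2%. Aldh1a1 was in 46.7% and 50.0% of the Otx1 cells against 44.7% and 58.9%, En1 in 93.3% and 50.0% against 80.6% and 71.8%, and Foxa2 in 20.0% and 50.0% against 39.8% and 32.4%, and for these 3 genes the share in the other cells lay within the interval on each plate. Otx2 was found in 33.3% of the Otx1 cells at E16 (11.8% to 61.6%) against 6.34% of the others, and in 12.5% at P0 (0.316% to 52.7%) against 7.88%, where on the VGAT plates the level of Otx2 was lower in Otx1 cells. Whether the kinds of plate differ in this was not tested. Cells with Otx2os1 had Aldh1a1, a retinoic acid enzyme of dopamine neurons, in 58.3% at E16 (36.6% to 77.9%) against 43.6%, and in 85.7% at P0 (63.7% to 97.0%) against 56.1%. Slc6a3 was found in 45.8% of the Otx2os1 cells at E16 against 47.3% of the others, and in 66.7% at P0 (43.0% to 85.4%) against 40.8%. En1 was in 95.8% at E16 (78.9% to 99.9%) against 80.0%, and in 95.2% at P0 (76.2% to 99.9%) against 68.9%. Th was in 58.3% and 57.1% against 48.7% and 46.9%, and Foxa2 in 45.8% and 23.8% against 38.2% and 33.8%. The share of the other cells lay below the interval at P0 for Aldh1a1, Slc6a3 and En1, and within it for Th and Foxa2 and for all of these genes at E16. With 1 plate for each stage these shares have no replicate check. The exact intervals, here and for the Otx2 cells above, treat the cells of a plate as independent and cover counting error only. They were not adjusted for the number of comparisons, so a share outside its interval is a description and not a test result.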

How the data were processed

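Single cells were sequenced by SORT-seq on 9 plates. According to the labels and methods, the authors aligned reads to the mouse genome (GRCm38, mm10) with STAR, counted transcripts by unique molecular identifiers and corrected the counts for identifier collisions. The deposited tables hold these expected counts, exonic and intronic together or apart, and they were rounded to whole numbers. Counts of the wells that met the limits given above were summed per plate, or per plate for cells with and without a gene after thinning each cell to 4000 counts (plates with at least 5 cells of a kind), and tested with edgeR 4.0.16 (quasi-likelihood, TMM, filterByExpr, Benjamini-Hochberg adjustment over all genes tested) in R 4.3.3. Sort was tested over 9 plates with stage as covariate, stage over 7 VGAT plates, and splits with the plate as block. DESeq2 1.42.0, other filters, thinning depths, labels and left-out plates were the alternatives. Scripts were tested on simulated data. Shares were computed in Python 3.11.15 (pandas 2.3.3; exact intervals from SciPy 1.17.1; thinning with NumPy 2.4.6) and drawn with matplotlib 3.10.9. Named genes were the members, up to 8 network genes a comparison with the largest change among those past the threshold, the 5 called genes a direction with the largest change and the same sign on all plates in each split, and the 3 genes most like each member by mean r of at least 0.2. Foxa1, Foxa2, En1, En2 and Shh for sort, Tal1 and Gata3 in the Otx2 split, Meis2 in the Otx1 split, Gata3 in the Nkx2-2 split, Fabp7, Vim, Ddc, Lamp5, Nr4a2, Gad1, Gad2, Slc32a1, the markers in Otx1 and Otx2os1 cells and genes of settings with 3 calls or fewer were named after their values were seen. So were Slc1a3, and Sox2 in the Otx2, Irx2 and Irx3 splits. The members and lists were chosen with earlier results of these data known. Genes that fit the naming rule but are not in the text are not reported here.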

Additional observations from a re-analysis of the deposited data

Results flagged for a closer look

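Of 40 groups of plates examined for a plate far from the others (Dixon's criterion, 95% level), 9 held one. Chance gives about 1 in 20 for separate groups of normal values. These groups share plates and genes, and some rest on few counts, so the 9 cannot be set against that rate. Otx1 was high on VGAT E16 replicate 4, at 104 CPM, among the 7 VGAT plates and among the 4 E16 plates, and in its share of cells among the E16 plates (23.2%). Irx1 was high on VGAT P0 replicate 2 among the 7 VGAT plates, at 71.7 CPM and in 23.2% of cells, the plate that also stood apart in Fabp7. Irx2 was found in 16.9% of the cells of VGAT E16 replicate 1, above the other E16 plates. Nkx6-1 was at 0.761 CPM and Gbx2 at 1.71 CPM on VGAT E16 replicate 3, above the other E16 plates, and Gbx2 was at 15.5 CPM on VGAT P0 replicate 1, above the other 6 VGAT plates. The values of Nkx6-1 and Gbx2 rest on 4, 9 and 23 counts.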

How the results depend on the processing

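Under the other plate label no gene passed for sort or stage (0 each, with 186 and 853 at an unadjusted p under 0.05), and 1 passed for stage on the 7 plates. The sort difference then changed sign for Gata3 (0.51), Irx2 (0.34), Irx3 (0.25), Irx5 (0.57), Lmx1a (-6.81), Lmx1b (-5.96), Meis2 (1.05), Nkx2-2 (0.62), Otp (0.39), Otx1 (0.72), Otx2 (0.52), Otx2os1 (0.84) and Sox14 (0.30). The stage difference did so on the 7 plates for Irx2 (0.19), Irx3 (-0.28), Irx5 (-0.44, and -0.41 with all plates), Nkx2-2 (0.21), Otx1 (0.38), Otx2os1 (0.36) and Tcf7l2 (0.37). Otherwise, the stage sign of Irx5 changed without a filter on low counts (-0.0019), without E16 replicate 4 (-0.02) or P0 replicate 3 (-0.19), that of Irx1 without P0 replicate 2 (from -0.21 to 0.56 over the left-out plates), and that of Tac1 in the Irx2 split at 8000 counts (0.14). The causes were not tested.

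Same-numbered plates did not deviate together (r = 0.0444, 0.0470 and 0.00808). With the replicate block, 914 genes passed for sort and 226 for stage, and Irx5 was -0.047 for stage. Without the plate block, 135 genes passed in the Otx2, 35 in the Otx1, 40 in the Nkx2-2, 2 in the Irx2 and 1 in the Irx3 split.

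In DESeq2, 3 genes passed for the interaction, 944 for stage, and 235, 91, 95, 23 and 1 in the splits in the same order. With no filter on low counts, 66 passed for the interaction, 1588 for stage and 109 in the Irx2 split. With full counts, 729, 285, 342 and 8 passed in the Otx2, Otx1, Nkx2-2 and Irx3 splits, and at 8000 counts a cell 571, 314, 118 and 66 in the Otx2, Nkx2-2, Irx2 and Irx3 splits. Nkx2-2 cells with at least 2 counts gave 130. The P0 plates alone gave 506 for sort.

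With plates left out in turn, the counts ranged from 625 to 1397 for sort (625 without VGAT+Pitx3 E16, 866 without VGAT+Pitx3 P0) and from 76 to 833 for stage (265, 92 and 130 without E16 replicate 1, 3 and 4, 162 and 76 without P0 replicate 2 and 3). They ranged from 227 to 405 (Otx2), 106 to 201 (Otx1) and 133 to 213 (Nkx2-2), each lowest without E16 replicate 4, from 32 to 67 (Irx2, 32 and 33 without E16 replicate 3 and 4), from 15 to 36 (Irx3, lowest without P0 replicate 2), and from 0 to 0 for the interaction, which could not be fitted without either VGAT+Pitx3 plate. The Irx3 split at 2 counts could not be fitted either. Of the log2 differences, 1106 kept direction and side of the threshold, 150 were no longer past it, 6 came to pass it and 27 changed sign. Of 150 shares of cells, 53 moved. For means of the VGAT plates this was a change of more than 1 SD. For a single VGAT+Pitx3 plate, which has no SD, it was a value outside the exact interval.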
